A study of Homo sapiens with 16 samples.

Results

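The regions described here are m6A-enriched stretches of coding sequence in the last exon of a transcript, upstream of the stop codon. Of the 36970 regions in the merged peak list of the series, 744 (2.01%) had their midpoint in the coding sequence (CDS) of the last exon of a protein-coding canonical transcript with at least 2 exons and touched no stop codon of such a transcript. They lay in 668 genes on chromosomes 1 to 22 and X. The choice used positions alone and no measured level.

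The libraries came from C4-2B, a human prostate cancer cell line sensitive to enzalutamide, an androgen receptor antagonist, and from MDV-R, a resistant line derived from C4-2B by growth in enzalutamide and kept in the drug. Each line had 4 replicates at day 3, and every replicate gave an RNA sample enriched with an antibody against m6A (IP) and an unenriched input, 16 libraries in 4 groups. MDV-R is a single derived line, and nothing in the labels says whether replicates were separate cultures, so p-values measure the spread between these libraries, which may be technical. Sample titles for MDV-R mention a bladder cancer line as well, and grouping here rests on the cell line given in the labels. Of 16 prostate markers, between 6 and 12 had a peak in an exon per list, against 1 to 4 of 18 urothelial and mesenchymal bladder line markers. Keratins KRT8 and KRT18 and the surface protein STEAP1 had a peak in none of the 8 lists, nor had the bladder line markers KRT5, KRT20, GATA3 and the uroplakins UPK1A, UPK1B and UPK2. The absence of a peak does not show the absence of the transcript.

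N6-methyladenosine (m6A) is placed on nascent messenger RNA by a methyltransferase complex of METTL3, METTL14, WTAP and partners, within a short sequence of which GGAC is the most common core. Exon junction complexes, which are deposited upstream of splice junctions, keep the complex away from nearby RNA, so that m6A accumulates in long internal exons and in last exons, where coding sequence and the start of the 3′ untranslated region lie beyond the final junction. Most genes have little coding sequence there, while some place nearly all of it in the last exon, among them many zinc finger transcription factors.

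The sequences around the nearest GGAC to the median summit (the point of highest enrichment) are shown for a choice of regions that have one. Each is given on the strand of the gene, from the hg38 genome, with GGAC in capitals, and all lay in last-exon CDS. They come from strongly enriched regions (ZSWIM6, WDR89, C1RL, ZBTB39), from the writer subunit gene WTAP, from a region called in MDV-R alone (HRH1), and from 2 regions far from the junction (AHNAK, USF3). The C1RL sequence lies outside its merged region, as does the median summit of the peaks that overlap that region.
ZSWIM6, chr5:61544015-61544042, plus strand: cctggcatggtgGGACttcatgggagga
WDR89, chr14:63599106-63599133, minus strand: agaagatgctttGGACtatttgattggt
C1RL, chr12:7096538-7096565, minus strand: tgtctgccagggGGACagtggcagcgtc
ZBTB39, chr12:57004088-57004115, minus strand: acattaccactgGGACcaactcctgtct
WTAP, chr6:159755265-159755292, plus strand: cctcccgccagaGGACgtctgggtctgg
HRH1, chr3:11259982-11260009, plus strand: ggggagtagcagGGACtatgtagccgtc
AHNAK, chr11:62518480-62518507, minus strand: ctgaacttgaaaGGACcaagtttgaagg
USF3, chr3:113656504-113656531, minus strand: gcagggtcgtgtGGACcatactgtggcc
The GGAC of ZSWIM6 and AHNAK lay 5 nt from the median summit, that of ZBTB39 and of HRH1 3 nt, and that of WTAP 6 nt upstream of it. In WDR89, C1RL and USF3 it lay 34 nt downstream, 38 nt downstream and 32 nt upstream. Of the 34 named regions searched, 15 (44.1%) had no GGAC within 100 nt of the median summit. Among these were PABPC5, MDM2 and NLGN2, which are 3 of the 4 regions that differed in fold enrichment between lines. The search left out the named regions in HRNR, EPPK1, GPATCH8, ZBTB4 and LRRC8C. A match is a description of the sequence and not a mapped methylation site.

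A 2nd short sequence recurred in zinc finger genes, where GAGAAACC lies in the codons that join neighbouring fingers. It is shown in capitals for a strong region, where it lay 79 nt from the median summit, and for a region called in C4-2B alone, where it lay 7 nt away.
ZNF875, chr19:37362761-37362788, plus strand: acactcagggGAGAAACCttatgtgtgc
ZNF677, chr19:53237260-53237287, minus strand: tcatactggaGAGAAACCttacaaatgt

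Depth behind the lists was recovered from the peak caller's statistics. Each IP or input library is counted in tags, which are reads kept after removal of duplicates. IP libraries held 0.864 to 1.21 M tags, while inputs held 0.901 to 1.23 M tags in C4-2B and 1.60 to 2.97 M in MDV-R, so that input depth and line cannot be told apart. The list of C4-2B replicate 1 stood apart, with 13191 peaks against 23254 to 24746 in the other C4-2B lists. Values without it are given beside the share of members called, the count called in all lists and the comparisons of calls between lines. They are not given for calls by distance from the junction or in zinc finger genes. C4-2B replicate 1 was also the only list in which the IP was the deeper library of its pair.

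The members were long stretches of open coding sequence. Their median length was 609 nt, the median last exon was 2898.5 nt long and its coding part 1055 nt. Over all 17614 canonical transcripts with coding sequence in the last exon, that coding part had a median of 160 nt. A coding part of at least 1000 nt stood behind 52.6% of members and 7.90% of those transcripts. In 143 members (19.2%) the whole coding sequence lay in the last exon, against 5.50% of the 18534 canonical transcripts with at least 2 exons. The rule that chose the members favours long coding parts, since a region must have its midpoint there and touch no stop codon. Members are regions, so a gene with several is counted for each of them, unlike the transcripts. Of the 668 genes, 622 held a single member. Among the rest, AHNAK2 held 11, its relative AHNAK 8 and SAMD9 5. A region over the stop codon was also present in 16.5% of the genes, and any other region of the merged list in 51.6%.

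Over the 735 members called in at least 1 list, the median summit stood 304 nt after the last splice junction (quartiles 149 and 683 nt) and 559 nt before the stop codon (quartiles 298 and 1215 nt). It lay within the last-exon CDS in 727 of them, upstream of the junction in 6 and past the coding sequence in 2. A peak can reach beyond the merged region it overlaps, and in 23 members (3.13%), C1RL and VASN among them, the median summit lay outside the merged region. In members called in all 8 lists the outermost summits of the 8 lists were a median of 108 nt apart. A summit within 100 nt of the junction was found in 113 members and one more than 2000 nt away in 48. The median of the mean log2 fold enrichment (IP over local background) was 2.72 in the first of these bins, 2.85 between 100 and 200 nt, 2.91 between 200 and 400 nt, 3.18 between 400 and 1000 nt, 2.96 between 1000 and 2000 nt and 2.67 beyond. All 8 lists called 28.3% of members within 100 nt, 49.3% between 1000 and 2000 nt and 12 of the 48 beyond 2000 nt. These shares are descriptions, since members share genes and transcript levels were not held equal between bins. GGAC was present within 50 nt of 34.5% of summits in the first bin, 37.7%, 38.9%, 38.1% and 35.5% in the next 4, and 50.4% in the last, which held 48 members.

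**Figure D1:**
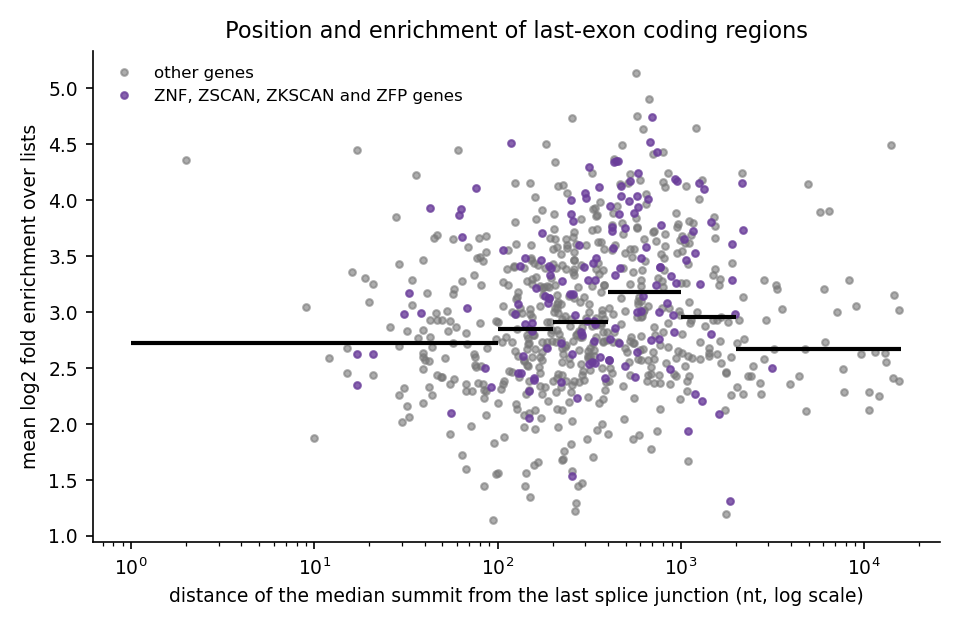
Mean log2 fold enrichment over the lists that called a region (vertical axis) against the distance of its median summit from the last splice junction in nt on a log scale (horizontal axis), 1 point per last-exon coding region with a summit after the junction. Black lines are medians of 6 distance bins, highest at 3.18 between 400 and 1000 nt, and purple points are regions in ZNF, ZSCAN, ZKSCAN and ZFP genes.

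The first comparison asks how many of these regions were enriched in each library. In C4-2B, 313, 504, 493 and 475 of the 744 members overlapped a peak in replicates 1 to 4, and in MDV-R 502, 536, 502 and 568. The share called was 59.98% ± 12.05 (SD, n = 4) in C4-2B and 70.8% ± 4.26 (SD, n = 4) in MDV-R. The ranges of the lines overlapped, and the difference of 10.9 percentage points did not pass an exact two-sided permutation test (p = 0.0857, smallest possible 0.0286). Without C4-2B replicate 1 it was 4.88 points (exact permutation p = 0.2), with replicate 2 of C4-2B left out instead 13.4 points (exact permutation p = 0.0286), and with every list limited to the 13191 peaks of the smallest it was 1.04 points (exact permutation p = 0.371).

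Members were called less often than regions over the stop codon (81.3% on average over the 8 lists) and in internal coding exons of at least 400 nt (79.4%), and more often than regions in shorter internal coding exons (43.9%), against 65.4% for members. Without C4-2B replicate 1 they were 84.2%, 82.7%, 48.6% and 68.7% in that order. These averages are descriptions. Whether the lines differed in this gap was tested. The difference between lines in members was smaller than that in stop codon regions by 0.773 points (exact permutation, adjusted p = 0.657), than that in long internal exons by 2.34 points (adjusted p = 0.129) and than that in short internal exons by 13.7 points (adjusted p = 0.129), with 3 comparisons adjusted together and none passing. With lists of equal size the gaps were −2.97, −3.78 and −5.48 points, and those to stop codon regions and long internal exons then passed (adjusted p = 0.0429 each). Without C4-2B replicate 1 the gaps were −1.70, −2.86 and −12.9 points (adjusted p = 0.257, 0.0857 and 0.171).

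**Figure D2:**
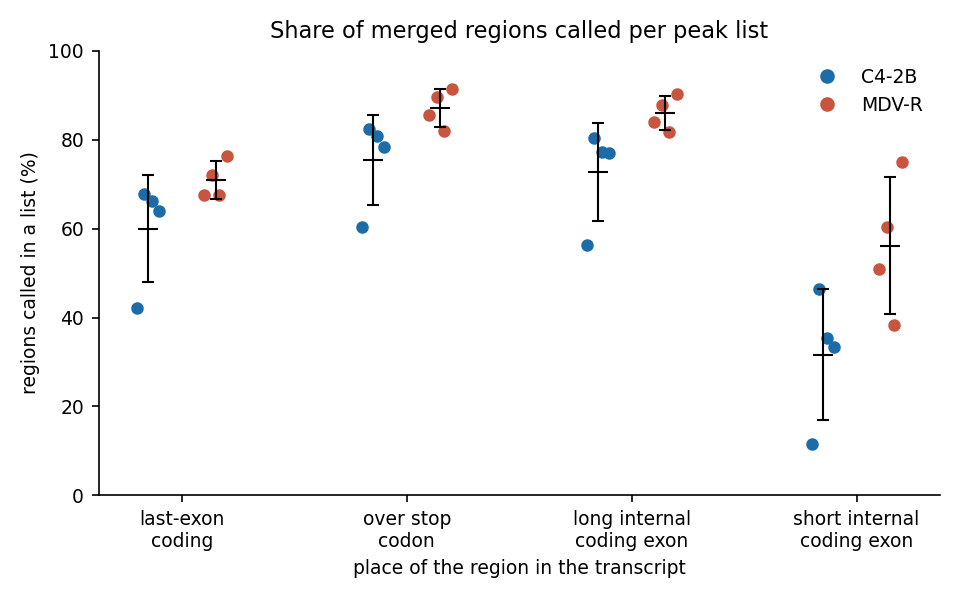
Percent of merged regions that overlapped a peak of a list (vertical axis, from 0) for last-exon coding regions and 3 other places in the transcript (horizontal axis), 1 point per list, with mean and SD of the 4 lists of a line in black. Last-exon coding regions range from 42.1% in C4-2B replicate 1 to 76.3% in MDV-R replicate 4.

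Of the 735 members called at least once, 281 (38.2%) were called in all 8 lists, where 25.9% of all 36076 called regions of the series were. With C4-2B replicate 1 set aside, all 7 remaining lists called 357 members (48.7% of the 733 called), where 34.2% of all called regions were. Another 119 were called in a single list, and 9 members overlapped no peak. The median number of IP tags at the summit was 62.5 in members called in all 8 lists and 9 in members called once. The strongest of the former by mean within-list rank of −log10 p were in C1RL, WDR89, ZSWIM6, ZNF875, ARHGEF35 and BTBD7.

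C1RL encodes a protease related to complement component C1r. Its fold enrichment was 20.9, 31.5, 24.6 and 27.2 in C4-2B replicates 1 to 4 and 29.5, 30.1, 18.98 and 37.5 in MDV-R, at 124 to 149 IP tags per list. The lines overlapped, with a log2 difference (MDV-R minus C4-2B, each list centred on its median) of −0.27 ± 0.22 (SE, adjusted p = 0.565, limma). ZSWIM6, a SWIM-type zinc finger gene, had the highest fold enrichments of the 6, 24.7, 34.8, 43.2 and 30.7 in C4-2B and 43.6, 38.7, 27.5 and 44.6 in MDV-R. WDR89 encodes a WD repeat protein, and its region also overlaps an exon of another gene on the opposite strand, which peak calls without strand cannot separate. It reached 13.1 to 20.5 in C4-2B and 14.2 to 25.5 in MDV-R. ARHGEF35 stood at 4.98 to 11.5 and 9.23 to 23.7 with the most IP tags of the 6, 169 to 199 per list. BTBD7, a BTB domain gene, stood at 11.2 to 19.6 and 14.5 to 31.0. None of these 6 passed the test of fold enrichment between lines (adjusted p from 0.182 to 0.8294, limma).

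The next comparison asks which coding regions of last exons differed in enrichment between the sensitive and the resistant line. The test ran on the 9324 regions of the series called in all 8 lists, of which 281 were members. Fold enrichment was higher in MDV-R in 3 members, PABPC5, VASN and MDM2, and lower in 1, NLGN2 (limma, adjusted p below the threshold of 0.05). That is 1.42% of the 281, where 2.67% of all regions tested passed (0.901% higher and 1.77% lower). At an unadjusted p below the threshold there were 34 members (12.1%), where 18.1% of all regions tested were. Without centring of lists 9 members were higher and 0 lower (3.2% of the 281), where 286 of the 9324 regions tested were higher and 21 lower. Without C4-2B replicate 4 there was 1 higher member, without MDV-R replicate 3 there were 7, and without MDV-R replicate 2 there were 0 lower members. Over all regions tested the same settings gave 42 higher, 178 higher and 74 lower. Centring moved the median log2 difference over all tested regions from 0.44 to 0.03 for fold enrichment, from 0.06 to −0.02 for IP tags and from −0.48 to 0.01 for local background, and the differences below are relative to those medians.

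PABPC5 encodes a cytoplasmic poly(A)-binding protein and has its whole coding sequence in the last exon. The region (chrX:91435648-91436615, plus strand, coding part of the last exon) had fold enrichments of 5.36, 8.23, 6.10 and 9.32 in C4-2B and 27.1, 33.6, 12.9 and 27.7 in MDV-R. Every MDV-R value was above every C4-2B value, with a log2 difference of 1.35 ± 0.26 (SE, adjusted p = 0.00895, limma). IP tags, scaled to library size as CPM (tags per M tags of the IP library), rose from 6.63 to 12.7 in C4-2B to 39.95 to 47.8 in MDV-R, from 7 to 11 tags to 36 to 45 tags. Local background was at the lowest value of the list, 1 library unit, in all 4 C4-2B lists, and at 1.21, 1.18, 7.51 and 1.24 units in MDV-R. Both terms passed, with log2 differences of 2.19 in IP tags (adjusted p = 4.87e-11, limma) and 1.42 in background (adjusted p = 0.0454). Outside MDV-R replicate 3 the background was at or near its lowest value in every list, and centring of lists adds to the difference.

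VASN encodes vasorin, a membrane protein that binds transforming growth factor beta. Its region (chr16:4380584-4381274, plus strand, last-exon CDS) had fold enrichments of 9.37, 7.35, 8.24 and 6.98 in C4-2B and 20.2, 31.9, 14.8 and 37.0 in MDV-R, with no overlap. The median summit lay past the end of the merged region, still in the coding sequence. The log2 difference was 1.22 ± 0.27 (SE, adjusted p = 0.0182, limma). Background was 23.3 to 49.2 units in C4-2B and 6.50 to 22.5 in MDV-R (log2 difference −1.10, adjusted p = 0.016). IP tags were 82.1 to 122 CPM and 120 to 140 CPM (0.19, adjusted p = 0.0194). The call was lost without C4-2B replicate 4, MDV-R replicate 2 or MDV-R replicate 4, with adjusted p of 0.0534, 0.0725 and 0.0837.

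MDM2 encodes the ubiquitin ligase that keeps p53 low. Its region (chr12:68839100-68839809, plus strand, last-exon CDS) had fold enrichments of 2.05, 4.08, 4.31 and 3.26 in C4-2B and 8.66, 8.73, 7.12 and 8.60 in MDV-R. All MDV-R lists were above all C4-2B lists, by 0.92 ± 0.20 (SE) on the log2 scale (adjusted p = 0.0171, limma). IP tags were alike in number, 100 to 107 in C4-2B and 102 to 125 in MDV-R, and their difference did not pass (0.09, adjusted p = 0.232). The tag number did not follow IP depth, with 100 in C4-2B replicate 1 at 1.21 M tags and 104 in replicate 4 at 0.864 M. Duplicates had been removed, and whether that limits tag numbers at such summits was not tested. Background was 74.4 to 120 units in C4-2B and 36.2 to 48.8 units in MDV-R (−0.72, adjusted p = 0.0212). The call was lost without C4-2B replicate 1, C4-2B replicate 4 or MDV-R replicate 1, with adjusted p of 0.0683, 0.0618 and 0.0574.

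NLGN2 encodes neuroligin 2, an adhesion protein of inhibitory synapses. Its region (chr17:7416657-7417250, plus strand, last-exon CDS) had fold enrichments of 9.19, 11.7, 17.4 and 16.5 in C4-2B and 7.34, 6.63, 4.96 and 12.1 in MDV-R, where replicate 4 overlapped the C4-2B range. The centred log2 difference was −1.25 ± 0.25 (SE, adjusted p = 0.0114, limma). IP tags numbered 29 to 31 and 29 to 39, while background was 2.51 to 4.88 units in C4-2B and 4.95 to 20.6 units in MDV-R (2.08, adjusted p = 0.00191). Without centring the difference was −0.85 (adjusted p = 0.133), and without MDV-R replicate 2 it was −1.14 (adjusted p = 0.051).

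**Figure D3:**
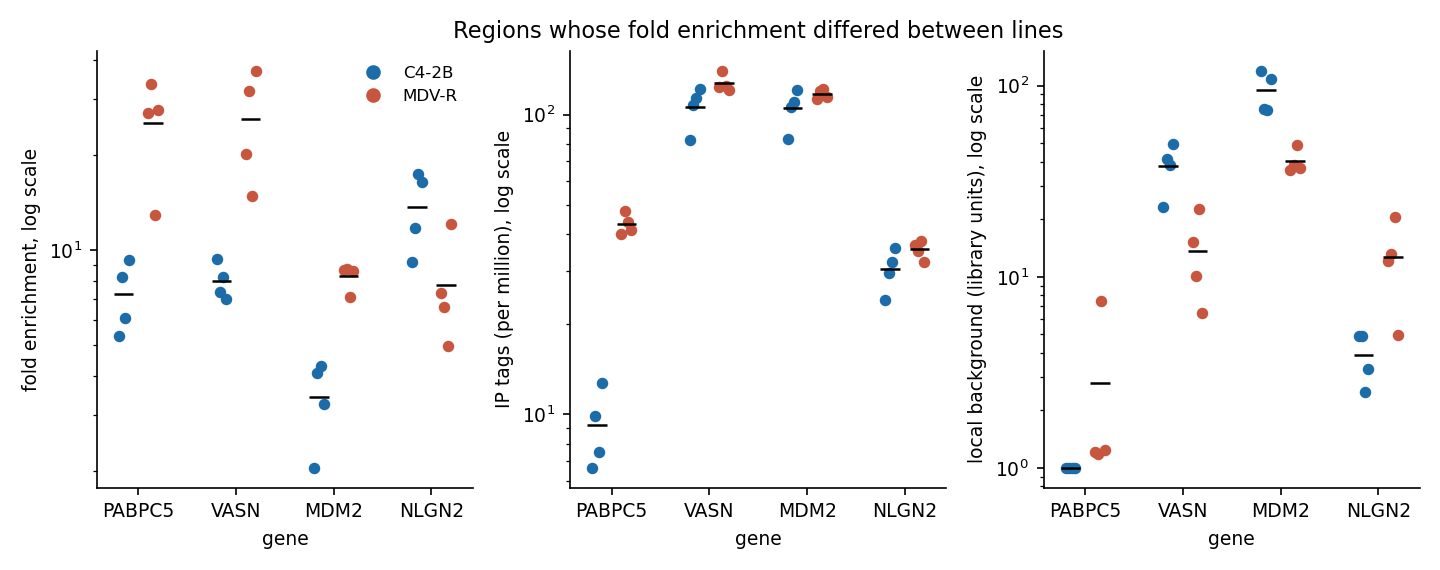
Fold enrichment, IP tags (CPM) and local background in library units (vertical axes, log scale) of the 4 last-exon coding regions whose fold enrichment differed between lines, 1 point per list, with the mean of each line as a black bar. Background is lower in MDV-R for VASN and MDM2 and higher for NLGN2. For PABPC5 background is at or near its lowest value in every list but MDV-R replicate 3, and IP tags are higher in MDV-R by 2.19 on the log2 scale.

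The terms of the ratio passed more often than the ratio. Standard errors rest on the spread between lists with no counting error added, so the counts for IP tags may be too high. At strong summits such as those of MDM2 and C1RL, tag numbers hardly followed IP depth, so alike IP tags do not show alike signal. IP tags differed in 151 of the 281 members (53.7%), where 54.1% of all tested regions did. They were higher in MDV-R in 69 members and lower in 82, against 24.9% and 29.2% of all tested regions. Local background differed in 55 members (19.6%), where 16.2% of all tested regions did, with 16 higher and 39 lower, against 6.54% and 9.67%. Without MDV-R replicate 2, 10 were higher. Of the 69 members with more IP tags, 13 also had more background and 1 (VASN) less. Of the 82 with fewer IP tags, 32 also had less background and 0 more. Over the 281 members the 2 differences correlated across regions with a Pearson r of 0.81, and over all 9324 regions with 0.73. Regions share libraries and are not independent. Local background is known at called peaks alone, and since inputs were deeper in MDV-R, its differences cannot be told apart from those of input depth. Fewer cells with a transcript and less of it per cell cannot be told apart in such libraries.

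**Figure D4:**
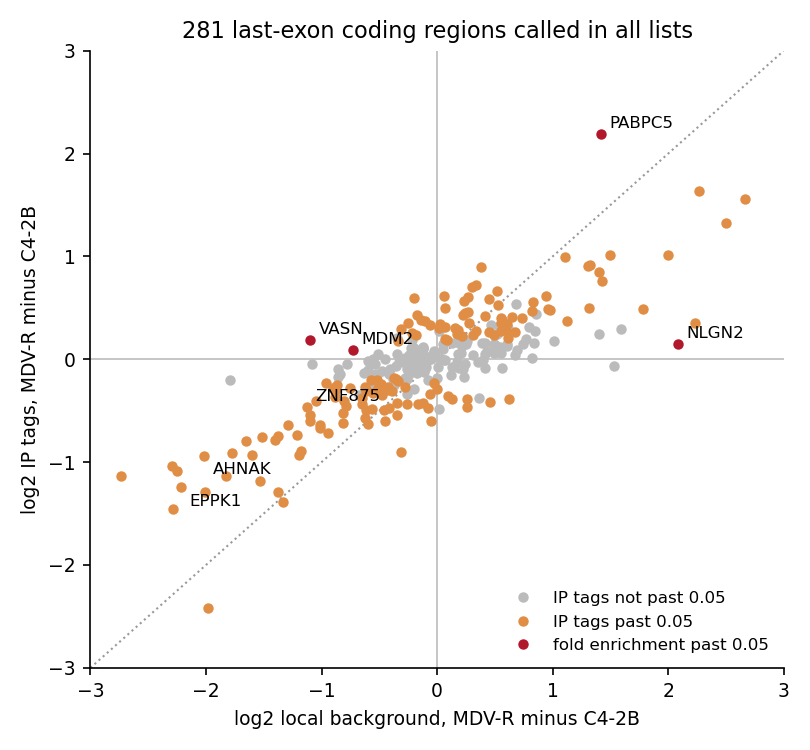
Log2 difference between lines in IP tags (vertical axis) against that in local background (horizontal axis), MDV-R minus C4-2B, for the 281 last-exon coding regions called in all lists. Points past 0.05 for IP tags are orange and the 4 past it for fold enrichment are red, and points on the dotted line have equal differences in both terms.

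The largest differences in IP tags, named here after their values were seen, belonged to genes whose background moved the same way. PPL encodes periplakin, a protein of desmosomes and the cornified envelope. At its region (chr16:4885064-4886238) IP tags were 70.5, 100.1, 97.5 and 97.3 CPM in C4-2B and 21.1, 13.8, 26.3 and 13.4 in MDV-R, a log2 difference of −2.42 ± 0.16 (SE, adjusted p = 2.14e-13, limma). Its background fell from 29.5 to 42.4 units to 4.25 to 13.1 units, and its fold enrichment did not pass (adjusted p = 0.132). Among members with more IP tags in MDV-R, PABPC5 (2.19, above) was followed by KRCC1, a lysine-rich coiled-coil gene, with 38.1 to 50.95 CPM in C4-2B and 127 to 165 CPM in MDV-R (1.64 ± 0.09, adjusted p = 4.72e-15). Its fold enrichment differed by −0.11 (adjusted p = 0.872). PDZD4, a PDZ domain gene, and HS6ST2, which encodes a heparan sulfate sulfotransferase, also rose, by 1.56 and 1.33 in IP tags (adjusted p = 1.18e-10 and 6.28e-09), without a passing difference in fold enrichment (adjusted p = 0.773 and 0.936).

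Giant coding exons gave the regions farthest from the junction. AHNAK encodes a very large scaffold protein of the cell cortex, nearly all of it in 1 exon with 17328 nt of coding sequence. Its farthest region called in all 8 lists (chr11:62516937-62519650, minus strand) had its median summit 15576 nt after the junction, with IP tags of 72.9, 103, 101 and 118 CPM in C4-2B and 52.2, 51.0, 52.6 and 60.2 in MDV-R. All C4-2B values were above all MDV-R values (−0.94 ± 0.08, adjusted p = 2.24e-10, limma). Background fell from 44.1 to 82.1 units to 6.07 to 16.9 units, and fold enrichment was 4.17 to 6.46 in C4-2B and 8.11 to 17 in MDV-R without passing (0.91, adjusted p = 0.0618). All 3 AHNAK members that were tested had fewer IP tags and less background in MDV-R. EPPK1, which encodes epiplakin, a cytolinker built of plakin repeats, moved in the same direction, with IP tags of 131 to 166 CPM in C4-2B and 58.4 to 85.9 CPM in MDV-R at 14098 nt from the junction (−1.24 ± 0.09, adjusted p = 1.99e-12), and with all 3 members lower in both terms. USF3, a transcription factor gene, and GPATCH8, a G-patch domain gene, had summits 4940 and 2844 nt from the junction. IP tags of USF3 did not pass (0.05, adjusted p = 0.632), and those of GPATCH8 were higher in MDV-R (0.34, adjusted p = 0.000218). AHNAK2 had its farthest such region at 13029 nt, with 6 to 16 IP tags per list, and no term passed there. AHNAK, AHNAK2, EPPK1 and HRNR hold tandem repeats, where reads that map to several places had been removed, so their counts are uncertain.

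A few regions were called in all 4 lists of one line and in none of the other's. There were 12 such members for C4-2B and 16 for MDV-R, 1.63% and 2.18% of the 735 called, where 1.22% and 3.68% of all called regions were of these kinds. With 4 lists against 4 each had an unadjusted p of 0.0286 in a two-sided Fisher's exact test, and 0 passed once p-values were adjusted over the 36076 regions called in the series, the lowest reaching 0.584. Without C4-2B replicate 1 the first count was 19. The second was 32 without C4-2B replicate 2, 26 without C4-2B replicate 3, 28 without MDV-R replicate 3 and 8 with lists of equal size. Their mean number of IP tags at the summit ran from 10.8 to 36.2 in the C4-2B set and from 9 to 91.2 in the MDV-R set.

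In C4-2B alone, 3 of the 12 regions were in HRNR, the gene of hornerin, a repeat-rich protein of the cornified envelope. The strongest of them had fold enrichments of 9.46, 12.5, 26.1 and 16.01 at 22 to 34 IP tags. Zinc finger genes came next. ZIK1 had 8.05, 12.4, 11.9 and 11.8, the imprinted gene PEG3 8.90, 11.1, 10.8 and 8.16, ZNF730 7.69 to 10.1 and ZNF677 6.51 to 13.7. GAS2L2, whose protein links actin and microtubules, had 6.51 to 13.5 at 10 to 17 IP tags. In 3 of the 12 the gene had another region that was called in at least 1 MDV-R list, and in 0 one called in all 4.

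In MDV-R alone, the strongest region was in ZNF804A, a zinc finger gene, with fold enrichments of 19.2, 20.5, 15.8 and 16.3 at 21 to 26 IP tags. FRMD3, a FERM domain gene, had 17.96, 7.57, 15.4 and 12.8, and HRH1, the histamine H1 receptor gene, 11.5, 9.73, 17.7 and 12.3. The receptor gene CMKLR2 had 7.43 to 16.6 and the kinase gene MAST1 7.04 to 12.1. VCX, an X-linked gene of a family expressed in testis, differed from the others in having 78 to 97 IP tags with fold enrichments of only 2.38 to 4.14, at 57.6 to 116 units of background. Its relatives on the X chromosome are close in sequence, so reads of the family cannot be fully assigned. In 4 of the 16 the gene had another region called in at least 1 C4-2B list, and in 1, ADAM21, one called in all 4.

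The last group of comparisons concerns sequence. GGAC lay within 50 nt of 36.1% to 40.6% of member summits per list (38.7% ± 1.79, SD, n = 8 lists), on the strand of the gene. On the opposite strand of the same windows the share was 22.9% ± 1.51, and in windows 300 nt away it was 21.2% ± 1.36. Between lines, 38.9% of summits held it for the C4-2B lists and 38.4% for the MDV-R lists (exact permutation p = 0.8).

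GGAC at members was compared with that at 3 other places in coding transcripts. The 8 lists share many regions and the same genome sequence. The sign-flip p-values below therefore measure agreement between lists and not the spread between regions or genes. The share was 49.1% at regions over the stop codon and 47.9% in long internal exons, 10.5 and 9.27 points above members, with members lower in 8 of 8 lists each time (exact sign-flip test over the lists, adjusted p = 0.00781, the smallest that 8 lists allow). In short internal exons it was 44.5%, 5.84 points above members (adjusted p = 0.00781), but there the opposite strand held GGAC in 35.6% of windows. That difference was −1.18 points within 25 nt of the summit (adjusted p = 0.0312), −0.85 for GGACT (adjusted p = 0.297) and −0.28 without zinc finger genes (adjusted p = 0.898), the last a setting added after seeing the data. Without zinc finger genes the differences to stop codon regions and long internal exons were −6.70 and −4.53 points (adjusted p = 0.0117 each), and for GGACT −3.25 and −1.85 (adjusted p = 0.0117 each). With the opposite strand subtracted, members stood 6.89 points above short internal exons (adjusted p = 0.0156), and the differences to stop codon regions and long internal exons were −6.63 and −6.80 points (adjusted p = 0.0117 each). This subtraction was chosen after seeing the data. For any of the forms of the wider consensus (an A preceded by A or G and before that any base but C, followed by C and any base but G), members were 7.61 points above short internal exons (adjusted p = 0.0234) and did not pass against the other 2 (−0.51 and −0.30 points, adjusted p = 0.328 and 0.453). GC content around summits was 47.8% at members, 52.8% over stop codons, 51.6% in long and 54.4% in short internal exons, lowest at members but not in the order of the GGAC shares, and its part in the difference was not tested.

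**Figure D5:**
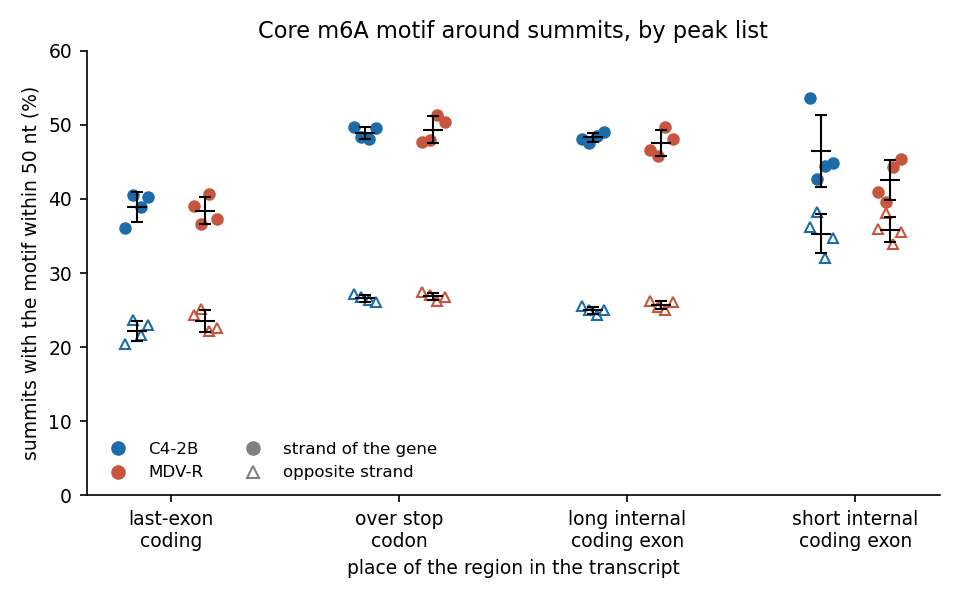
Percent of summits with the core m6A motif within 50 nt (vertical axis, from 0) on the strand of the gene (filled circles) and on the opposite strand (open triangles) for 4 places in the transcript (horizontal axis), 1 symbol per list, with mean and SD of the 4 lists of a line in black. On the strand of the gene, last-exon coding regions lie between 36.1% and 40.6%, below the stop codon regions and long internal exons of every list.

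The median log2 fold enrichment of members was 3.15 ± 0.22 (SD, n = 8 lists). It was 0.14 below that of stop codon regions (0 of 8 lists higher, adjusted p = 0.0117, exact sign-flip test) and 0.42 above that of short internal exons (8 of 8 lists higher, adjusted p = 0.0117). Against long internal exons the difference was 0.0017 ± 0.11 (SD, n = 8 lists, adjusted p = 0.961, exact sign-flip test). As for GGAC, these sign-flip p-values do not measure the spread between regions. For C4-2B lists the member median averaged 3.01 ± 0.12 and for MDV-R lists 3.30 ± 0.20 (SD, n = 4 each, difference 0.29, exact permutation p = 0.114). Without MDV-R replicate 3 it was 0.39 (exact permutation p = 0.0286). That of C4-2B replicate 1 was 2.82, below the other C4-2B lists at 3.06 to 3.07.

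C2H2 zinc finger genes, which encode the largest family of human transcription factors, made up much of the set. By symbol (ZNF, ZSCAN, ZKSCAN and ZFP), 149 members (20.03%) in 136 genes belonged to them, 96 on chromosome 19. The share was 6.44% at stop codon regions, 3.30% in long and 1.83% in short internal exons. Their coding part of the last exon had a median of 1570 nt, since the finger array usually sits in 1 exon, against 882 nt in other members. Summits lay a median of 345 nt from the junction and 1110 nt from the stop codon, against 281 and 462.5 nt. Zinc finger genes with other symbols, such as ZIK1 and PEG3, count among the other members, also where zinc finger genes were left out.

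Zinc finger members were called in 59.7% to 85.2% of cases per list and other members in 37.6% to 74.1%, and in each of the 8 lists the zinc finger share was the higher. All 8 lists called 82 of the 149, 55.0%, against 33.4% of other members. Their median log2 fold enrichment was 3.40 ± 0.31 (SD, n = 8 lists) and that of other members 3.08 ± 0.21. GGAC was present at only 22.9% ± 2.68 of their summits, against 43.7% ± 2.15 at those of other members, and at 17.5% ± 3.23 on the opposite strand. GC content was 40.9% and 49.99%.

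The other 4-base cores ending in AC went both ways. AGAC was found at 49.5% ± 5.19 of zinc finger summits and 42.6% ± 1.72 of other members' summits, and AAAC at 59.8% ± 2.98 and 39.3% ± 2.02. GAAC (29.1% and 37.2%), TGAC (23.3% and 36.8%) and TAAC (13.5% and 14.5%) were, like GGAC, less frequent at zinc finger summits. The finger-joining sequence GAGAAACC, which contains AAAC, lay within 50 nt of 14.5% ± 1.82 of zinc finger summits and of 0.415% ± 0.229 of others, and on the opposite strand of at most 0.84% per list of zinc finger summits. The wider consensus was present at 93.5% and 91.3% of summits. These shares have no test, and a match does not place a methyl group.

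Between lines, 0 of the 82 zinc finger members called in all lists passed for fold enrichment (limma; 3 at an unadjusted p below the threshold), with a median difference of 0.03 where that of all tested regions was also 0.03. IP tags were higher in MDV-R in 19 and lower in 21, and background higher in 1 and lower in 7. These are 48.8% and 9.76% of the 82, where 54.1% and 16.2% of all regions tested differed. ZNF875, a zinc finger gene with a KRAB domain, was the strongest. Its fold enrichments were 7.65, 16.8, 16.3 and 15.7 in C4-2B and 24.1, 34.6, 18.7 and 31.8 in MDV-R, and its IP tags fell from 122 to 176 CPM to 103 to 127 CPM (−0.47 ± 0.07, adjusted p = 9.11e-07). Background fell from 25.8 to 44.9 units to 7.97 to 15.8 units (−1.13, adjusted p = 0.00421), and fold enrichment did not pass (0.58, adjusted p = 0.182). ZNF639, the next, had 131 to 144 IP tags in C4-2B and 123 to 137 in MDV-R and passed in no term. The finger arrays of this family are alike in sequence, so removal of reads that map to several places makes their counts uncertain.

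Other gene groups held few members. Feedback inhibitors of signalling, genes that damp the pathways that induce them, had 8, of which 7 were called in all lists. None passed for fold enrichment (2 at an unadjusted p below the threshold), with a median difference of 0.38 against 0.03 over all regions tested. IP tags were higher in MDV-R in 2, SPRED1 (0.26, adjusted p = 0.0055) and SOCS4 (0.18, adjusted p = 0.0359), and lower in 2, SOCS2 and SPRY2, so that 4 of 7 (57.1%) differed, near the 54.1% of all regions tested. SOCS2, a suppressor of cytokine signalling, had 75.4, 98.1, 95.4 and 116 CPM of IP tags in C4-2B and 42.2, 30.8, 42.8 and 32.3 in MDV-R (−1.46 ± 0.11, adjusted p = 3.10e-12). Its background fell from 29.3 to 42.7 units to 2.07 to 11.3 units, and fold enrichment did not pass (adjusted p = 0.45). SPRY2, an inhibitor of receptor tyrosine kinase signalling, fell by 0.52 in IP tags (adjusted p = 0.0252). TOB1, an antiproliferative gene, had less background in MDV-R (−0.63, adjusted p = 0.00704) at 151 to 185 IP tags in every list. DUSP16 and SOCS5 passed in no term, and SPRY4 was called in 1 C4-2B list.

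BTB and kelch genes, many of which encode substrate adaptors or transcription repressors, had 7 members, 4 of them called in all lists. ZBTB39 had fewer IP tags in MDV-R (−0.23, adjusted p = 0.00683) and ZBTB4 more (0.19, adjusted p = 0.0183). KCTD7 was called in all 4 MDV-R lists and no C4-2B list. Leucine-rich repeat and protocadherin adhesion genes, whose extracellular part often lies in 1 exon, had 18 members in 15 genes, but 2 were called in all lists. One of these, AMIGO2, had 27 to 31 IP tags in C4-2B and 43 to 57 in MDV-R (0.72 ± 0.12 in log2 CPM, adjusted p = 9.39e-06) without a passing difference in fold enrichment (0.53, adjusted p = 0.307), and its region also overlaps an exon on the opposite strand. The other, LRRC8C of the volume-regulated anion channel, passed in no term at 12 to 17 IP tags. In LRRC32, an anchor of latent transforming growth factor beta, a region was called in all C4-2B lists and no MDV-R list, and in PCDH17, a protocadherin gene, the reverse. Both were weak, with means of 11.25 and 14.75 IP tags. LRRC32 stood at a mean within-list percentile of 7.60, and the gene had another region called in at least 1 MDV-R list.

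Homeobox genes had 6 members, HOXA3, HOXB8, HOXB9, LHX4, ZEB2 and ZFHX4, and none was called in all 8 lists. HOXB9 was called in 1 C4-2B list and 4 MDV-R lists, and HOXA3 in 3 and 1. Of the forkhead and SOX genes, SOX18 held the single member, called in no C4-2B list and 2 MDV-R lists. Among chromatin regulators, the acetyltransferase gene KAT6B had 100 to 126 IP tags in C4-2B and 147 to 191 in MDV-R (0.60 ± 0.07, adjusted p = 1.28e-08). Its fold enrichment of 4.76 to 7.004 in C4-2B and 6.23, 40.3, 21.8 and 8.76 in MDV-R did not pass (0.88, adjusted p = 0.28). TET1, a DNA demethylase gene, had 28 to 35 and 37 to 45 IP tags (0.43 ± 0.13, adjusted p = 0.00769). SLC26A2, a sulfate transporter gene of the androgen response list, held 2 members, and the one farther from the junction had fewer IP tags in MDV-R (−0.37, adjusted p = 0.00271). WTAP, the writer subunit gene, had 121 to 134 IP tags in C4-2B and 124 to 147 in MDV-R, with fold enrichments of 8.81 to 10.3 and 13.6 to 20.2 that did not pass (0.37, adjusted p = 0.484). The lists of immediate early genes, of DNA repair and mitosis genes, of prostate and of bladder line markers and of the 12 transcripts that the study took to targeted assays held no member.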

How the data were processed

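RNA of C4-2B and MDV-R cells was profiled by MeRIP-seq. Per the labels, the authors used STAR 2.7.0, SAMtools 1.10 and MACS2 3.0.0a6. Reads were aligned to hg38 with GENCODE release 39, uniquely mapped deduplicated reads were kept, and peaks were called per replicate over input without a fragment model (extension 100 nt, genome size 300 Mb). Each deposited list gives a fold enrichment, which is a ratio of IP plus 1 to local background plus 1 at the summit, a −log10 p-value, a −log10 q-value and a score, the −log10 q times a constant, rounded down. The score was not analysed. The deposited merged list gives positions only, and how it was merged is not given in the sources used here. Per-region read counts were not used here. Peak calls carry no strand.

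Whole IP tags and local backgrounds were recovered from each pair of fold enrichment and p-value, and solved at least 99.99% of peaks per list. Library sizes follow from the lowest recurring background, and rest on the stated parameters. IP tags are given as CPM of the IP library, and background in units of that lowest value. Standard errors of limma rest on the spread between lists, with no counting error added, so they and their p-values may be too small. Regions were classed with GENCODE release 44 on hg38, 1-based coordinates, and counted as called at an overlap of 1 bp. The strongest peak stood for a region. GGAC was searched within 50 nt of each summit.

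Regions called in all 8 lists were compared with limma 3.58.1 (R 4.3.3, trend, each list centred on its median, Benjamini-Hochberg over all regions tested), without a block. Other tests were exact and two-sided, over 70 arrangements of lists or 256 of signs (numpy 2.4.6, scipy 1.17.1). Members, gene lists and tests were chosen with earlier results of these data known. Named were the 6 members strongest in all lists, up to 8 per direction that passed for fold enrichment, the 6 strongest per single line, the 6 farthest from the junction and up to 2 plus 2 per gene list, with exceptions stated. One item that this rule names is not reported here. Scripts were tested on simulated data. Alternatives tried were peaks with −log10 q of 5 or more, lists of equal size, an overlap of 50%, no centring, means over peaks, at least 3 lists per line, at least 20 IP tags, no trend, a replicate block, windows of 25 nt, other motifs, long exons of at least 1000 nt and leaving out each list. Leaving out zinc finger genes, subtracting the opposite strand and counting calls without C4-2B replicate 1 were added after seeing the data.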

Additional observations from a re-analysis of the deposited data

Results flagged for a closer look

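In groups of 4 lists, a value was singled out where it lay far from the other 3 relative to the range of all 4 (Dixon's test), which chance gives for about 1 in 20 groups. C4-2B replicate 1 was set apart in 2 measures over all members, the share called (313 members, 42.1%) and the median log2 fold enrichment (2.82), each the lowest of its line. Among named regions its fold enrichment was also the lowest in ZNF875 (7.65) and in ZIK1 (8.05). In MDV-R, replicate 3 gave the lowest fold enrichment of MDM2 (7.12). The IP library of C4-2B replicate 1 was the deepest of its line (1.21 M tags) and its input the shallowest (0.901 M tags), and the part of depth in these values was not tested.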

How the results depend on the processing

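Against long internal exons the difference in median log2 fold enrichment changed sign with a minimum exon length of 1000 nt (−0.038), without zinc finger genes (−0.074) and when lists were left out (−0.018 to 0.027). The GGAC difference to short internal exons reversed for the wider consensus (7.61 points) and with the opposite strand subtracted (6.89), and no longer passed for GGACT (−0.85) or without zinc finger genes (−0.28). Those to stop codon regions and long internal exons did not pass for the wider consensus (−0.51 and −0.30). With lists of equal size, 8 members were called in MDV-R alone, and the gaps between lines to stop codon regions and long internal exons passed (−2.97 and −3.78 points). Without centring, 9 of 281 members had higher and 0 lower fold enrichment, where 286 and 21 of all 9324 regions tested did. In the same setting 39 members had fewer IP tags and 6 more background, where 1385 and 155 of all regions tested did. With at least 3 lists per line, 2 of 370 members had lower fold enrichment, where 241 of 13507 regions did. The causes were not tested, apart from those that follow from an alternative's construction.

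Leaving out lists gave 12 to 19 members in C4-2B alone, 16 to 32 in MDV-R alone, 1 to 7 with higher and 0 to 1 with lower fold enrichment, and 10 to 15 with more background. The difference in percent called ran from 4.88 to 13.4 points, that in GGAC between lines from −1.48 to 0.068 points and that in median log2 fold enrichment from 0.23 to 0.39. With a replicate block, 3 and 1 members passed for fold enrichment, 67 and 81 for IP tags and 12 and 34 for background (higher and lower), and the lines differed in percent called by 10.9 points (exact p = 0.125). It moved no count by over 1.5 times and ended none of the 4 fold enrichment calls. Same-numbered lists of the lines did not deviate together (correlations −0.075 to 0.025), so the numbers were not taken as a pairing. Depth limits weak regions, since members called in a single list had a median of 9 IP tags, and a region not called is not shown to lack m6A.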
